A study of Mus musculus with 3 samples.

Results

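The 10 genes described here, of antioxidant defence, cystine import and metal binding, were followed through the cell classes of mouse bone marrow: Slc7a11, Gclm, Hmox1, Srxn1, Txnip, Txnrd1, Prdx1, Sod2, Mt1 and Mt2. They were chosen by what they do, but with earlier results of these data known, so counts of them beside all genes are a description. They were taken by symbol from the 32285 genes in the deposited tables, and all 10 were found. The marrow was taken from the tibia and femur of mice of the C57BL/6J strain and was enriched on a Ficoll-Paque gradient before droplet single-cell sequencing of the 3′ ends of transcripts (10x Genomics). There were 3 groups with 1 library each: Sham, MI (myocardial infarction) and MI-E (infarction plus EMPA, which the labels do not spell out). The labels carry one surgical description for all 3 libraries, in which the LAD, a coronary artery, was tied off, and they do not say how the Sham operation differed. The number of animals pooled in a library, their age and sex, the dose of EMPA and the time from surgery to collection are not given in the sources used here. With 1 library per group no test was made between groups, and the values describe only these 3 libraries.

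Cells balance oxidants with 2 thiol systems. In the glutathione system, cystine is brought in by a transporter whose light chain is Slc7a11, glutathione is made by glutamate-cysteine ligase, of which Gclm is the modifier subunit, and the transcription factor NRF2 (Nfe2l2) raises many of the genes when oxidants build up. In the thioredoxin system, thioredoxin reductase (Txnrd1) recharges thioredoxin, peroxiredoxins such as Prdx1 remove hydrogen peroxide, sulfiredoxin (Srxn1) repairs over-oxidised peroxiredoxins, and Txnip binds thioredoxin and restrains glucose uptake. Hmox1 breaks down heme, Sod2 removes superoxide in mitochondria, and the metallothioneins Mt1 and Mt2 bind zinc and copper and are raised by metals, glucocorticoids and inflammation. In marrow these systems matter most to neutrophils and monocytes, which make oxidants to kill microbes, and to red cell precursors, which handle iron and heme.

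The start regions of 3 of the genes are shown: that of the cystine transporter gene, which had the lowest ratio of MI over Sham, and those of the neighbouring pair of metallothionein genes, of which Mt1 had the highest. Each run is the 250 bases before the RefSeq start (GRCm38.p6), 5′ to 3′ along the gene's strand. For Slc7a11 (chr3:50443614-50443863, minus strand) capitals mark 2 matches to TGATGNAA, the element bound by ATF4, the transcription factor of the amino acid stress response. For Mt2 (chr8:94172368-94172617) and Mt1 (chr8:94178839-94179088), both on the plus strand, capitals mark matches on either strand to the metal response element core, TGCACNC or TGCGCNC.
Slc7a11: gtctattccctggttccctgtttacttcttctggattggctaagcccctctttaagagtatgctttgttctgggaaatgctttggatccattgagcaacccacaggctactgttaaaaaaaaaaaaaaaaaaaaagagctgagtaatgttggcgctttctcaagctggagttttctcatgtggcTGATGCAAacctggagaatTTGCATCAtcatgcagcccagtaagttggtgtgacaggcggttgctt
Mt2: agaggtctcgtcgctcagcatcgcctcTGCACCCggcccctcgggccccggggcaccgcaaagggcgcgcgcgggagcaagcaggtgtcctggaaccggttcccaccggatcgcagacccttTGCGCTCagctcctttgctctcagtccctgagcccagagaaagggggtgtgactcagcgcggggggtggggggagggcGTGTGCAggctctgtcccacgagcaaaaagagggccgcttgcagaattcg
Mt1: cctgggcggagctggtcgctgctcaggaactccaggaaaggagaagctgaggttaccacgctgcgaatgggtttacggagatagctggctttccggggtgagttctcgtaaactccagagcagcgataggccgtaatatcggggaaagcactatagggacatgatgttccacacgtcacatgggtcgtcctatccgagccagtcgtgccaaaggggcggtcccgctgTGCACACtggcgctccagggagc
The ATF4 matches of Slc7a11 begin 66 and 47 bases before the start, on opposite strands. The metal response cores of Mt2 begin 223, 128 and 50 bases before its start, and 1 more begins at base 5 after it. Mt1 has 1 core at 23 bases before the start and 2 more at bases 3 and 21 after it. Other annotated Mt1 transcripts start 122 and 152 bases further on and other Mt2 transcripts 46 and 242 bases further on, so distances to those starts are longer. Over the 300 bases from 250 before to 50 after each start, 3.97% of 32851 mouse promoters held an ATF4 match and 25.7% held a metal response core. Of the 10 genes, 9 had an entry in the promoter table, and Hmox1 did not. These matches are letters in a window and not measured binding. The genes themselves lie at chr3:49892526-50443614 (Slc7a11), chr8:94172664-94173568 (Mt2) and chr8:94179082-94180327 (Mt1) in GENCODE M21, with 5513 bases between the end of Mt2 and the start of Mt1.

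Filtering left 21273 cells in Sham, 20459 in MI and 19617 in the MI-E library, in which the median cell had 2132, 3113 and 2582 UMIs (counted molecules). Between 156 and 176 cell barcodes were shared by any pair of libraries, under 0.771% of either library. Genes that respond to handling differed between the libraries as a whole: Rbm3, a cold-induced gene, was at 491 CPM in Sham, 1158 for MI and 894 for MI-E, Jun, an immediate early gene, at 186, 59.0 and 62.7, and the stress chaperone Hspa1a at 8.27, 0.954 and 0.748. Their part in any difference below was not tested. Free RNA was gauged by neutrophil S100a8 and S100a9 in B lineage-like cells, at 3.26%, 5.17% and 3.65% of their level over all cells in Sham, MI and MI-E, and by the hemoglobin genes Hbb-bs and Hba-a1 in the same cells, at 8.62%, 14.5% and 9.18%. Mature myeloid cells fell into different clusters by library: of 3571 Sham monocyte-like cells 2749 were in a cluster led by Ifi27l2a and Cx3cr1 that held 68 MI cells, whereas 3235 of 4917 MI monocyte-like cells were in a cluster led by Saa3, Ms4a8a and Vcan that held 13 Sham cells. Class values were therefore also taken within clusters. The 10 genes were kept out of the genes used for clustering.

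Levels are UMIs summed over the cells of a class in a library, per 1000000 UMIs of that class (CPM), with exact Poisson 95% intervals. Ratios of levels carry exact conditional binomial 95% intervals, given in brackets. Both kinds cover counting error only. A gene was counted as measured in a class when it reached a mean of 10 CPM and 30 UMIs over the 2 libraries compared, and as past 2-fold when the ratio was at least 2 or its inverse was. In bulk sums of this kind, a different mix of cells in a class and a different level per cell cannot be told apart. MI and MI-E are both set against Sham and MI-E against MI, so the 3 comparisons share libraries.

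Of 100 pairs of a gene and a class (10 genes in 10 classes with at least 200 cells per library), 70 were measured for MI over Sham, and 12 of these (10 higher in MI, 2 lower) were past 2-fold. Over all genes and the same classes, 5.09% of 75759 measured pairs were past 2-fold, 2.64% higher and 2.46% lower. Mt1 accounted for 6 of the 10 higher pairs, Txnip for 2, and Gclm and Mt2 for 1 each. The lower pairs were Slc7a11 in neutrophil-like and Prdx1 in basophil and mast-like cells. The median log2 ratio over the 70 pairs was 0.25, whereas the median over all measured genes ran from -0.01 in monocyte-like to 0.33 in erythroid-like cells. Of 69 pairs measured for MI-E over MI only 2 were past 2-fold, both lower in MI-E, beside 1.4% of all pairs (0.616% lower), and the median was -0.11. For MI-E over Sham 11 of 69 were past 2-fold (8 higher, 3 lower), beside 5.01% of all pairs, 2.98% higher and 2.03% lower. Most of the redox genes thus lay within 2-fold of Sham in most classes, and the exceptions were few genes in particular cells.

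**Figure D1:**
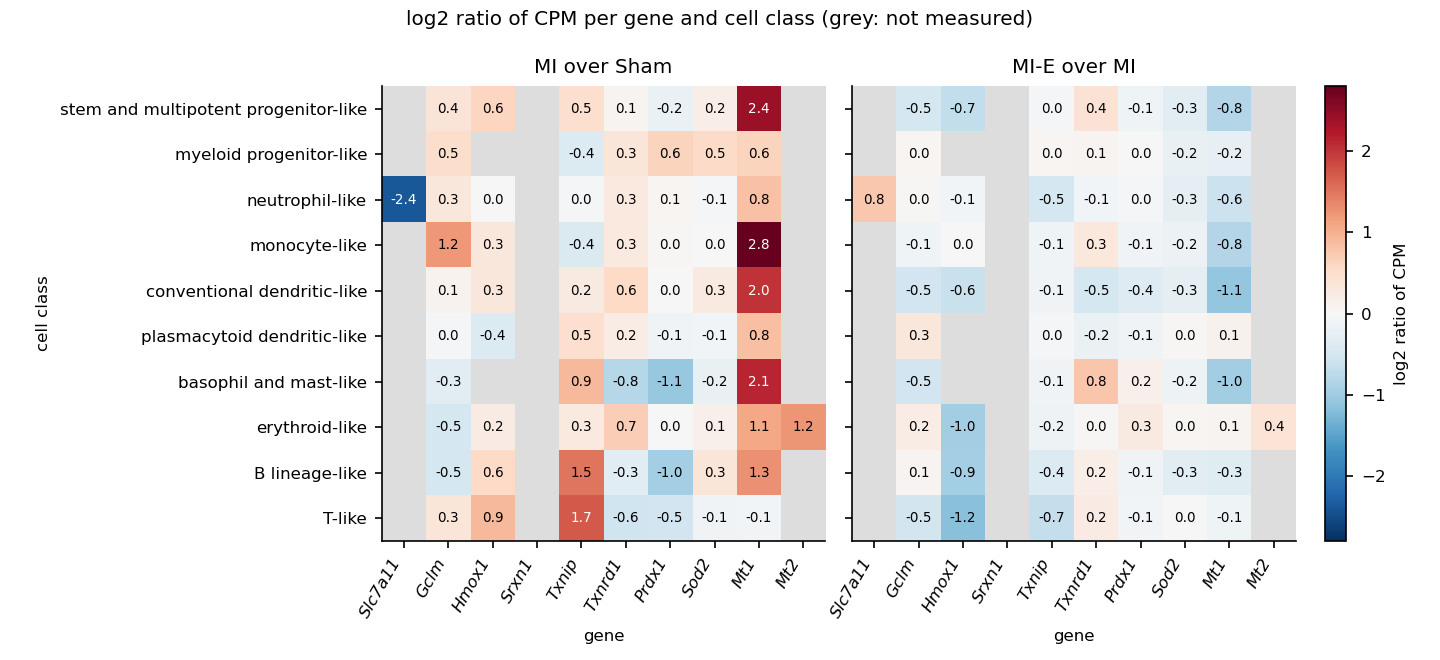
Heat map of the log2 ratio of CPM for the 10 genes (columns) in 10 cell classes (rows), MI over Sham on the left and MI-E over MI on the right; red is higher and blue lower in the first-named library, and grey pairs were not measured. Mt1 is the column with most red squares for MI over Sham, up to 2.78 in monocyte-like cells, and Slc7a11 in neutrophil-like cells is the lowest square at -2.38; the right panel stays between -1.16 and 0.77.

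Slc7a11, the light chain of the cystine and glutamate exchanger, was high in neutrophil-like cells alone among the 10 main classes. Its level in neutrophil-like cells was 102 CPM in Sham, 19.6 for MI and 33.3 for MI-E. Sham stood highest, MI lowest, and the 3 Poisson intervals did not overlap (96.2 to 108, 18.1 to 21.3 and 30.9 to 35.8). In no other main class did it pass 5.63 CPM in any library, and none of those classes counted as measured. MI was 5.20-fold lower than Sham [4.70 to 5.75], and MI-E 1.69-fold higher than MI [1.52 to 1.89]. Between Sham and MI, 2.75% of all measured genes in neutrophil-like cells were past 2-fold.

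The share of neutrophil-like cells with at least 1 Slc7a11 UMI was 26.0% (Clopper-Pearson 95% interval 24.3 to 27.7) in Sham, 6.89% (6.30 to 7.51) in MI and 10.8% (9.98 to 11.7) in MI-E, at medians of 2832, 3292.5 and 2968.5 UMIs per cell. In B lineage-like cells, which should lack the gene, it was 0.152% of 10537 Sham cells at a median of 1399 UMIs, and 0 of 3930 MI cells, which allows a level of up to 0.635 CPM. When each neutrophil-like cell was thinned to 1000 UMIs (280, 391 and 414 shallower cells left out), the shares were 14.7%, 2.92% and 4.56%. Sham had the largest share of cells with the transcript and the fewest UMIs per neutrophil-like cell.

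The 4 neutrophil-like clusters were filled differently by the libraries. A mature-like cluster led by Slc7a11 itself, Ptgs2 and Il1b, although the gene took no part in the clustering, held 1397 Sham cells and only 36 MI and 64 MI-E cells, while a second mature-like cluster led by Cstdc4, Cxcl2 and Retnlg held 123, 2736 and 2291. Within the first, Slc7a11 was at 258 CPM in Sham and 124 in MI (2.08-fold lower in MI [1.12 to 4.34]). Within the second it was at 247 CPM in Sham, 61.3 for MI and 86.6 for MI-E, 4.03-fold lower in MI than in Sham [3.03 to 5.27]. In the cluster led by Ltf, Olfm4 and Ly6g the levels were 42.4, 8.97 and 21.7 CPM, 4.73-fold lower in MI than in Sham [3.55 to 6.29] and 2.42-fold higher in MI-E than in MI [1.86 to 3.15]. The dividing precursors held little of it, 7.65 CPM in Sham and 4.12 in MI. Slc7a11 was lower in MI in each of the 3 clusters that expressed it, as the plot by cluster shows, 1 of them with only 36 MI cells.

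**Figure D2:**
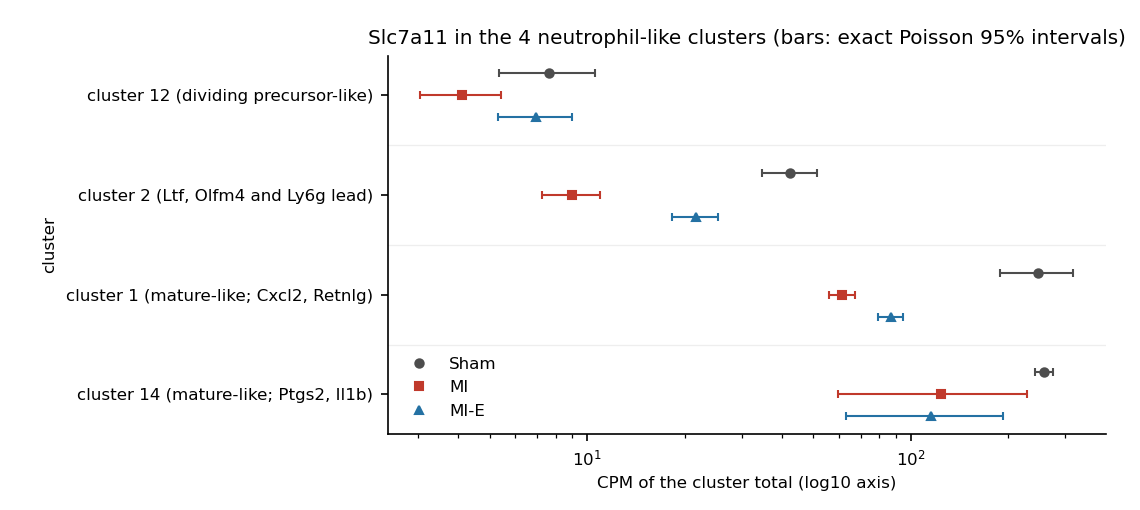
Slc7a11 level (CPM of the cluster total, log10 axis) in the 4 neutrophil-like clusters; points are libraries and bars are exact Poisson 95% intervals. Sham lies above MI and MI-E in the 3 later clusters, at 247 against 61.3 and 86.6 CPM in the cluster led by Cxcl2 and Retnlg, and all libraries are low in the dividing precursors.

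Outside the 10 main classes, Slc7a11 was also seen in a small macrophage-like group (75, 141 and 38 cells) at 229.8 CPM in Sham, 26.1 for MI and 47.8 for MI-E. The S100a8 and S100a9 level in that group was 459.9%, 198% and 260.2% of the all-cell level, so neutrophil genes were abundant in it, and their part in the Slc7a11 value was not tested.

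Gclm, the modifier subunit of glutamate-cysteine ligase (chr3:122245557-122270732), was measured in all 10 classes and was highest in erythroid-like cells, at 483 CPM in Sham, 345 for MI and 400.1 for MI-E. Stem and multipotent progenitor-like cells (97.4, 126 and 88.9 CPM) and myeloid progenitor-like cells (72.6, 102 and 106) came next in each library. The class past 2-fold was monocyte-like cells, with 29.8 CPM in Sham, 69.4 for MI and 64.0 for MI-E. Sham stood apart there, at a ratio of 2.32 for MI over Sham [2.11 to 2.56], beside 5.19% of all measured genes past 2-fold. The ratio was 2.01 [1.77 to 2.28] in dividing monocyte progenitor-like cells and 2.44 [2.09 to 2.85] in the remaining monocyte-like cells. In the cluster led by Ifi27l2a and Cx3cr1, however, which holds most Sham cells, it was 0.76 [0.21 to 1.98] from the 68 MI cells in it. In erythroid-like cells Gclm ran the other way, at a ratio of 0.71 for MI over Sham, and its level in the cluster led by Hemgn and Slc4a1 was 635 CPM in Sham, 405 for MI and 608 for MI-E.

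Hmox1, the inducible heme oxygenase (chr8:75093621-75100589), was highest among the main classes in conventional dendritic-like cells, followed by monocyte-like cells. Conventional dendritic-like cells held 253 CPM in Sham, 317 for MI and 204 for MI-E, with MI highest and MI-E 1.55-fold lower than MI [1.36 to 1.76]. That cluster was led by Cd209a but also by the macrophage genes C1qb and C1qa, and the 1% of its cells richest in Hmox1 held 27.2%, 32.6% and 41.3% of its Hmox1 UMIs. The small macrophage-like group led by Vcam1 and C1qa had the highest level, 761 CPM in Sham, 759 for MI and 717 for MI-E, with overlapping intervals. Among the other main classes, monocyte-like cells held 62.2, 77.2 and 76.6 CPM and neutrophil-like cells 43.4, 43.1 and 40.7. Non-classical monocyte-like cells, 183 to 191 per library, held 89.8 CPM in Sham and 120 in MI (35 UMIs in each) and 274 in MI-E (82 UMIs). A single cell held 32 of the 82 UMIs, and without the richest cell of each library the levels were 82.6, 103 and 167.9 CPM.

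One of the 2 pairs past 2-fold for MI-E over MI was Hmox1 in T-like cells, at 20.2 CPM in Sham, 37.6 for MI and 16.8 for MI-E, 2.24-fold lower in MI-E than in MI [1.38 to 3.71]. It rests on 49 UMIs in MI and 28 in MI-E, and 2.6% of all genes were past 2-fold in that class. All 7 classes in which Hmox1 was measured for MI-E over MI had a lower value in MI-E, with a median log2 ratio of -0.70 and a range from -1.16 in T-like to -0.01 in monocyte-like cells. In plasmacytoid dendritic-like cells, Hmox1 was 2.51-fold lower in MI-E than in Sham [1.28 to 5.39], from 45 UMIs in Sham and 11 in MI-E, beside 3.58% of all genes past 2-fold. Without doublet removal it was 1.33-fold lower.

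Txnip (chr3:96557957-96561883), the thioredoxin-binding alpha-arrestin, was highest in basophil and mast-like cells, at 546 CPM in Sham, 1030.3 for MI and 963 for MI-E. It was past 2-fold in the 2 lymphoid classes. In T-like cells it was 227 CPM in Sham, 740.4 for MI and 468 for MI-E. Sham was lowest and MI highest, 3.27-fold higher in MI than in Sham [2.84 to 3.77], and MI-E was 1.58-fold lower than MI [1.44 to 1.74]. In B lineage-like cells the order was the same, with 179 CPM in Sham, 507 for MI and 391 for MI-E, and MI was 2.84-fold higher than Sham [2.69 to 2.98]. Between Sham and MI, 4.85% of all genes measured in T-like cells and 7.85% of those in B lineage-like cells were past 2-fold.

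All 5 B stages had more Txnip in MI than in Sham, although pro-B-like and dividing large pre-B-like cells were only 82 and 26 cells in MI. Mature naive B-like cells went from 282 CPM in Sham to 601 in MI and 445 in MI-E, a ratio of 2.13 for MI over Sham [1.98 to 2.30]. In immature B-like cells the levels were 181, 449.8 and 401 CPM and the ratio 2.48 [2.18 to 2.82]. Small pre-B-like cells differed less, with 223, 363 and 311 CPM and a ratio of 1.63 [1.44 to 1.84]. These stage ratios were below that of the B lineage-like class as a whole. Dividing large pre-B-like cells were 989 of 10537 B lineage-like cells in Sham but 26 of 3930 in MI. The part of this mix in the class ratio of Txnip was not tested. Natural killer-like cells, a small group, ran alongside with 280.5, 545 and 424 CPM. Basophil and mast-like cells, given above, had the same order, with a ratio of 1.89 for MI over Sham [1.72 to 2.08], and conventional dendritic-like cells were at 378, 449 and 417 CPM. Monocyte-like and neutrophil-like cells did not have this order: Txnip was 268 CPM in Sham, 203 for MI and 185 for MI-E in monocyte-like cells, and 188, 185 and 132 in neutrophil-like cells.

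Txnrd1 (chr10:82833951-82897712), which recharges thioredoxin, was measured in all 10 classes and past 2-fold in none. Its highest levels were in stem and multipotent progenitor-like cells, at 78.1 CPM in Sham, 82.4 for MI and 109 for MI-E, and in T-like cells in Sham, at 82.6 CPM against 56.1 and 65.3. Srxn1 (chr2:152105516-152111376), which repairs peroxiredoxins, was measured in none of the 10 main classes, with a highest value there of 7.16 CPM in MI-E basophil and mast-like cells (6 UMIs). In the small groups it reached 13.4 CPM, in MI-E non-classical monocyte-like cells (4 UMIs). Differences in Srxn1 within the main classes were therefore not called. Over all cells it was at 1.81 CPM in Sham (Poisson interval 1.52 to 2.15). It was at 2.83 CPM for MI (2.51 to 3.18) and 2.91 for MI-E (2.56 to 3.29). The Sham interval lay below those of MI and MI-E. The part of the different mix of classes in this was not tested.

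Prdx1 (chr4:116685544-116700822), a cytosolic peroxiredoxin, was highest in monocyte-like cells, where the libraries lay close together at 657 CPM in Sham, 669.8 for MI and 629 for MI-E. It was lowest in neutrophil-like cells, at 45.3, 47.4 and 46.0 CPM. In B lineage-like cells it was 319 CPM in Sham, 165 for MI and 154 for MI-E, 1.94-fold lower in MI than in Sham [1.80 to 2.09] and, past 2-fold, 2.07-fold lower in MI-E than in Sham [1.94 to 2.21], beside 7.71% of all genes. The stages differed in this. Pro-B-like cells held 477 CPM in Sham and 145 in MI, and dividing large pre-B-like cells 480.4 and 109, but these were 82 and 26 cells in MI. In mature naive B-like cells, the stage with the most cells in MI, Prdx1 was 179 CPM in Sham, 160.1 for MI and 141 for MI-E, with a ratio of 0.89 for MI over Sham [0.79 to 1.01]. Dividing large pre-B-like cells made up 989 of 10537 B lineage-like cells in Sham but 26 of 3930 in MI and 77 of 5315 in MI-E, and the part of this mix in the class difference was not tested.

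For MI over Sham, basophil and mast-like cells were the class past 2-fold for Prdx1, with 287 CPM in Sham, 137 for MI and 153 for MI-E, 2.09-fold lower in MI than in Sham [1.73 to 2.54], beside 8.51% of all genes in that class. Without doublet removal that ratio was 0.73. Myeloid progenitor-like cells had the opposite order, 279 CPM in Sham, 430 for MI and 432 for MI-E. Sod2 (chr17:13006846-13040063), the mitochondrial superoxide dismutase, was measured in all 10 classes and past 2-fold in none. It was highest in myeloid progenitor-like cells in MI, at 124 CPM against 85.8 in Sham and 108 in MI-E, and lowest in neutrophil-like cells, at 24.6, 23.7 and 19.9 CPM.

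**Figure D3:**
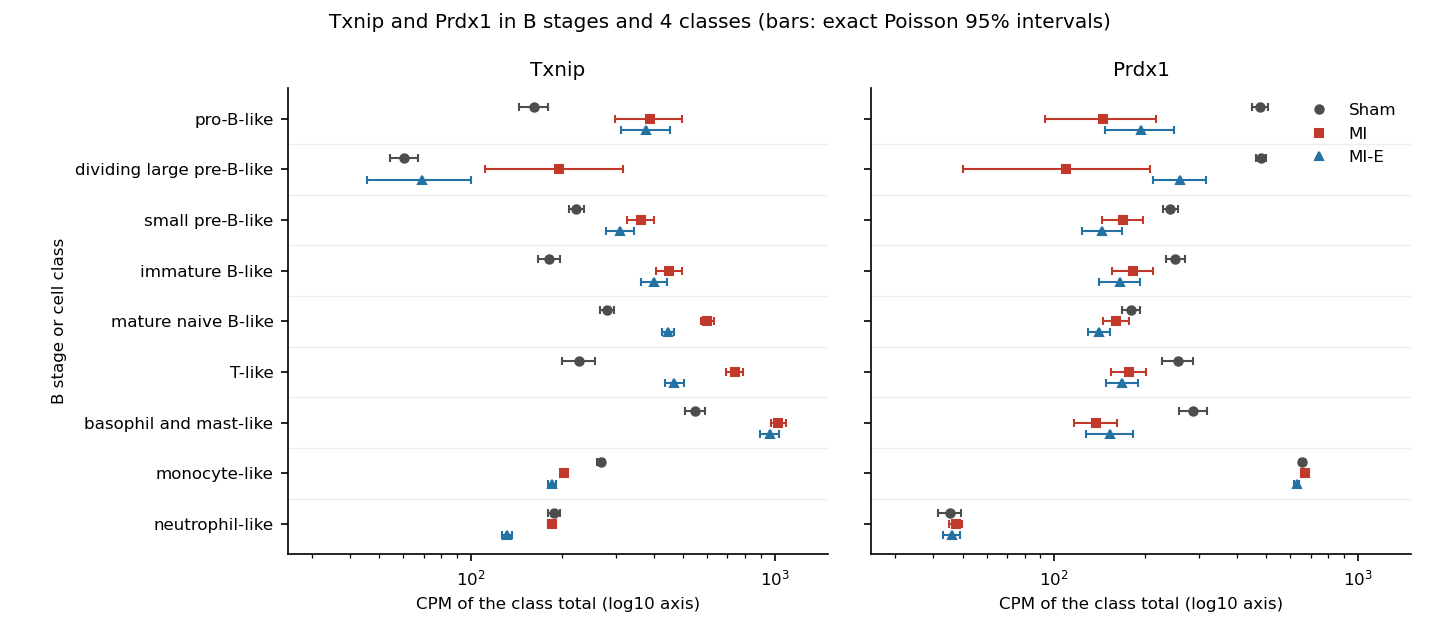
Txnip (left) and Prdx1 (right) levels (CPM of the class total, log10 axis) in the 5 B stages and in T-like, basophil and mast-like, monocyte-like and neutrophil-like cells; points are libraries and bars are exact Poisson 95% intervals. Txnip in T-like cells goes from 227 CPM in Sham to 740.4 in MI, while Prdx1 in monocyte-like cells lies between 629 and 669.8 CPM in all 3 libraries.

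Mt1 was past 2-fold in more classes than any other of the 10 genes. Over all cells it was at 85.8 CPM in Sham, 226 for MI and 180.4 for MI-E. It was past 2-fold higher in MI than in Sham in 6 of 10 classes. In 2 of these, B lineage-like and basophil and mast-like cells, the part of free RNA was not tested. Of 4541 genes measured in all 10 classes, 25 (0.551%) were past 2-fold higher in at least 6. Among these 25, chosen here after their values were seen, were many neutrophil genes: S100a8, S100a9, Camp, Ngp, Ltf, Lcn2, Retnlg, Mmp9 and Lrg1. Others were Rbm3, the glucocorticoid-induced genes Tsc22d3 and Fkbp5, and the interferon-induced membrane protein gene Ifitm1. The part of free RNA in this count of genes was not tested.

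The highest Mt1 levels were in erythroid-like cells (323, 679 and 714 CPM in Sham, MI and MI-E) and myeloid progenitor-like cells (358, 547 and 467). The widest difference was in monocyte-like cells, at 26.4 CPM in Sham, 181 for MI and 103 for MI-E. Sham was lowest and MI highest, and MI was 6.87-fold higher than Sham [6.25 to 7.57]. The share of monocyte-like cells with a Mt1 UMI was 10.7% in Sham, 51.5% for MI and 36.2% for MI-E at medians of 3946, 4622 and 4527 UMIs per cell, and 2.61%, 17.2% and 9.52% after thinning to 1000 UMIs (42, 65 and 114 cells left out). In T-like cells, where Mt1 was low, the shares were 3.32%, 2.595% and 2.02% at medians of 2214.5, 1780 and 1721 UMIs. Mt1 was therefore present in more monocyte-like cells in MI, not only in a few rich ones, as the 1% of cells richest in it held 9.48% of its UMIs there.

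The clusters that make up the monocyte-like class each had more Mt1 in MI than in Sham. In the cluster led by Ifi27l2a and Cx3cr1 the levels were 27.9 CPM in Sham, 126 for MI and 64.2 for MI-E, 4.50-fold higher in MI than in Sham [3.02 to 6.49]. In the dividing progenitor-like cluster led by Mxd3 and histone genes they were 20.5, 125 and 79.9 CPM, 6.11-fold [5.03 to 7.48], and in the other dividing cluster 37.3, 147 and 100.1 CPM, 3.95-fold [3.01 to 5.30]. The cluster led by Saa3, with only 13 Sham cells, held 71.2 CPM in Sham (3 UMIs), 230.4 for MI and 128 for MI-E. When each library was clustered apart, the class ratio was 3.88.

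Conventional dendritic-like cells held 59.4 CPM of Mt1 in Sham, 240.4 for MI and 114 for MI-E, 4.04-fold higher in MI than in Sham [3.23 to 5.11], beside 6.66% of all genes. This was also the other pair past 2-fold for MI-E over MI, 2.11-fold lower in MI-E [1.79 to 2.49], beside 2.05% of all genes in that class. Stem and multipotent progenitor-like cells held 21.4, 114 and 64.5 CPM, 5.30-fold higher in MI than in Sham [3.62 to 8.02], beside 3.52% of all genes. Neutrophil-like cells differed less, at 26.8, 47.6 and 31.3 CPM, but their mature-like cells were at a ratio of 3.71 for MI over Sham [2.76 to 5.08]. That stage pools a cluster of 1397 Sham and 36 MI cells with one of 123 and 2736, and the part of this mix was not tested. In monocyte-like, conventional dendritic-like, stem and multipotent progenitor-like and neutrophil-like cells MI-E lay between Sham and MI.

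In B lineage-like and basophil and mast-like cells, Mt1 was set beside both gauges of free RNA. B lineage-like cells held 12.8 CPM in Sham, 30.9 for MI and 24.6 for MI-E, which is 14.9%, 13.7% and 13.6% of the all-cell level, beside 8.62%, 14.5% and 9.18% for the hemoglobin genes in the same cells. S100a8 and S100a9 were lower there, at 3.26%, 5.17% and 3.65%. In basophil and mast-like cells the levels were 11.8, 51.5 and 26.3 CPM, 13.8%, 22.8% and 14.5% of the all-cell level. Hemoglobin was at 6.46%, 19.4% and 7.09% in them, and S100a8 and S100a9 at 8.37%, 10.6% and 14.5%. Both classes were past 2-fold for MI over Sham. The part of free RNA in these values was not tested, and they are not read as expression by those cells. In T-like cells Mt1 was at 13.8, 13.1 and 11.99 CPM with overlapping intervals, beside 5.74%, 11.1% and 6.45% for hemoglobin.

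**Figure D4:**
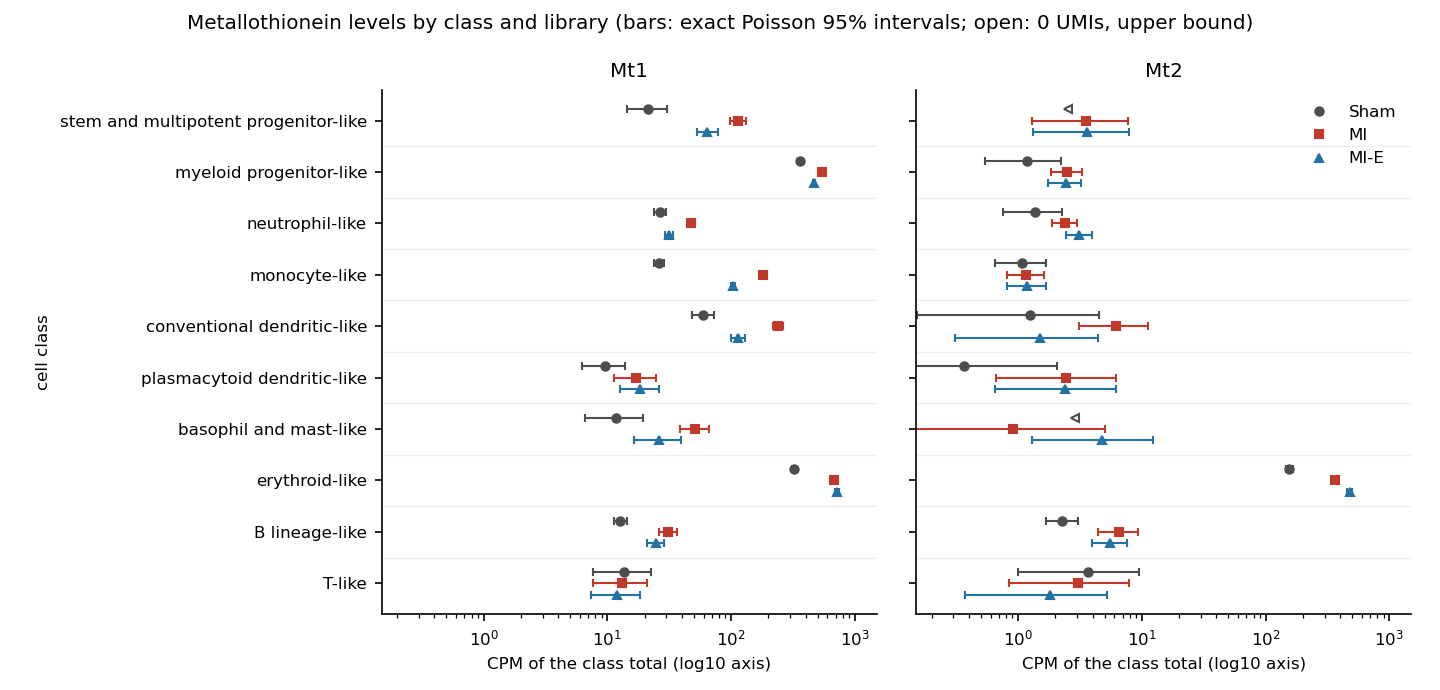
Mt1 (left) and Mt2 (right) levels (CPM of the class total, log10 axis) in 10 cell classes; points are libraries, bars exact Poisson 95% intervals, and open arrows upper bounds at 0 UMIs. Mt1 in monocyte-like cells goes from 26.4 CPM in Sham to 181 in MI and 103 in MI-E, and Mt2 exceeds 10 CPM in erythroid-like cells alone among these classes.

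Among the 10 main classes, Mt2 was high in erythroid-like cells alone. Erythroid-like cells held 156 CPM in Sham, 364 for MI and 477 for MI-E, with Sham lowest and MI-E highest, and none of the other 9 classes reached 10 CPM in any library. MI was 2.34-fold higher than Sham [2.17 to 2.52], beside 5.21% of all measured genes past 2-fold, and MI-E 1.31-fold higher than MI [1.23 to 1.40]. Both metallothioneins sat almost wholly in 1 of the 3 erythroid-like clusters, the one led by Car1 and Mt2 and marked by Klf1, a transcription factor of red cell development. There Mt1 was at 736 CPM in Sham, 1062 for MI and 1059 for MI-E, and Mt2 at 359, 573 and 709. In the cluster led by Hemgn and Slc4a1, with high hemoglobin, Mt1 was at 11.8, 33.6 and 13.1 CPM and Mt2 at 1.22, 17.5 and 5.46. Outside the main classes, stromal and endothelial-like cells (16, 83 and 59 cells) held Mt2 at 25.5, 91.0 and 41.2 CPM from 2, 56 and 12 UMIs. Plasma cell-like cells (16, 25 and 22) held 23.3, 69.0 and 11.4 CPM, and 1 cell held 10 of the 14 UMIs in MI.

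That early cluster made up 20.4% of erythroid-like cells in Sham, 37.7% for MI and 38.3% for MI-E. Their part in the class difference was not tested. Within the cluster, MI over Sham was 1.44 for Mt1 [1.37 to 1.52] and 1.60 for Mt2 [1.48 to 1.72], both under 2-fold. Another scaling also ended the class calls: with median-of-ratios scaling, which shifts erythroid-like log2 ratios of MI over Sham by -0.35, the class log2 ratio was 0.73 for Mt1 and 0.88 for Mt2. Gclm did not follow the metallothioneins here. It was present in all 3 erythroid-like clusters and lower in MI than in Sham in the cluster led by Car1, at 373 CPM in Sham, 305 for MI and 316 for MI-E.

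**Figure D5:**
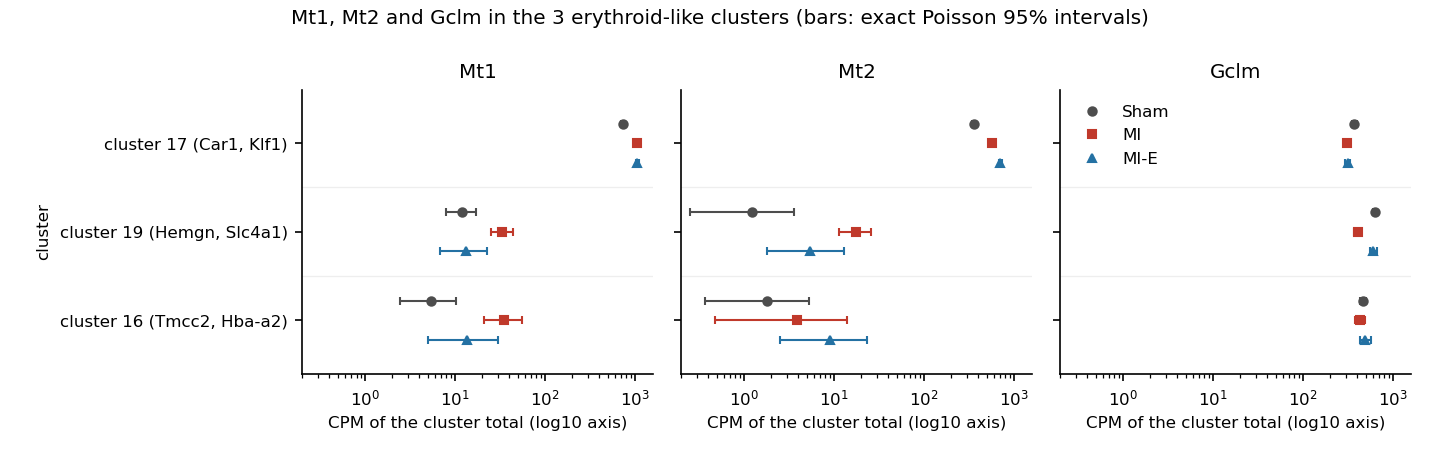
Mt1, Mt2 and Gclm levels (CPM of the cluster total, log10 axis) in the 3 erythroid-like clusters; points are libraries and bars are exact Poisson 95% intervals. Mt1 and Mt2 are concentrated in the cluster led by Car1 (736 and 359 CPM in Sham), whereas Gclm is at 305 CPM or more in all 3 clusters.

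The other genes of these pathways were read through 12 lists, made with earlier results of these data known, of which 119 genes were in the tables. In neutrophil-like cells the NADPH oxidase subunits, which make the oxidants of the killing response, were abundant and similar: Cyba was at 1901 CPM in Sham and 2264 in MI, and Cybb at 1885 and 1703, with 0 of 7 measured genes past 2-fold. Of 6 measured genes of cystine import and glutathione synthesis, Slc7a11 was past 2-fold lower and none past 2-fold higher, beside 1.66% of all genes lower, and the median log2 ratio was -0.16 beside 0.01 over all genes. Gsr, glutathione reductase, was at 828 CPM in Sham and 1011 in MI. Among glutathione peroxidases and transferases, 0 of 6 were past 2-fold, and Mgst1 was at 361 CPM in Sham and 206 in MI. Txn1, thioredoxin itself, was at 1394 CPM in Sham and 868 in MI. Of 5 measured ATF4 targets Slc7a11 was past 2-fold, while Atf4 was at 124 and 123 CPM and Slc3a2, the heavy chain partner of Slc7a11, at 37.7 and 31.1. Neither Slc3a2 nor the other measured ATF4 genes were past 2-fold, and the part of ATF4 in the Slc7a11 difference was not tested. The neutrophil-like clusters were filled differently by library, and the part of this in these list values was not tested either.

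In monocyte-like cells, 2 of 8 measured genes of cystine import and glutathione synthesis were past 2-fold higher in MI and none lower, beside 2.05% of all genes higher and 3.15% lower, with a median log2 ratio of -0.00 beside -0.01 over all genes. These were Gclm and Gsr, the latter at 370.1 CPM in Sham and 786 in MI (ratio 2.13 [2.07 to 2.18]). Mgst2, a microsomal glutathione transferase, was at 14.2 CPM in Sham, 80.6 for MI and 30.9 for MI-E, 5.67-fold higher in MI than in Sham [4.98 to 6.48] and 2.61-fold lower in MI-E than in MI. On the other side, 1 of 8 genes of heme and iron handling was lower, Blvrb, biliverdin reductase B, at 80.5 CPM in Sham and 28.9 in MI. The stress factor Atf3 was at 49.6 CPM in Sham and 13.02 in MI, and the alpha-arrestin Arrdc3 at 28.1 and 12.9. Atf3 was also among the genes leading the cluster that held most Sham cells. Sham and MI monocyte-like cells lay mostly in different clusters, and the part of this in the list differences was not tested. The NRF2 gene Nfe2l2 itself was at 87.5 and 95.7 CPM. In the metallothionein and zinc list 6 of 8 measured genes were higher in MI, with a median log2 ratio of 0.53, and Mt1 alone was past 2-fold.

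In B lineage-like cells, of 12 measured genes of thioredoxin and glutaredoxin, 10 had a ratio under 1 for MI over Sham, 1 of them past 2-fold, and Txnip was past 2-fold higher, beside 4.87% of all genes lower and 2.98% higher, with a median log2 ratio of -0.31 beside 0.08 over all genes. Txn1 was at 386 CPM in Sham and 159 in MI, 2.43-fold lower in MI. In mature naive B-like cells, however, it was at 121 and 118 CPM (ratio 0.98 [0.85 to 1.12]), and the part of the smaller number of dividing cells in the class difference was not tested. Among 6 peroxiredoxins the median was -0.61, and Prdx4 was at 60.5 CPM in Sham and 20.3 in MI. Gsr was higher, at 20.1 CPM in Sham and 55.9 in MI, as was Ddit4, a stress and glucocorticoid-responsive inhibitor of growth signalling, at 16.96 and 71.7. The alpha-arrestins differed in opposite directions: Txnip was higher in MI, and Arrdc3 was lower, at 38.3 CPM in Sham and 14.4 in MI. Mlxip, a glucose-sensing factor that acts on the Txnip promoter, was at 71.6 and 114 CPM.

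In erythroid-like cells, 2 of 6 measured genes of the metallothionein and zinc list were past 2-fold higher in MI, Mt1 and Mt2, beside 3.56% of all genes, and neither under median-of-ratios scaling. The list had a median log2 ratio of 0.52 beside 0.33 over all genes. Gsr was at 54.4 CPM in Sham and 125 in MI, and G6pdx, which feeds NADPH to the thiol systems, at 20.7 and 52.4. Both were past 2-fold on class totals, but the median-of-ratios shift of -0.35 in log2 takes both under it. The part of the larger early cluster in MI was not tested for these genes. The most abundant red cell peroxidases differed less: Prdx2 was at 1871 CPM in Sham and 1697 in MI, and Gpx1 at 3022 and 2080. Erythroid-like genes were named after their values were seen. Between MI-E and MI, 1 list gene was past 2-fold in each of neutrophil-like (Arrdc4, 8.82 CPM in MI-E and 19.3 in MI), monocyte-like (Mgst2) and erythroid-like cells (Gstp1, 25.3 and 12.5), and 0 in B lineage-like cells. The shares of all genes past 2-fold in these classes were 0.276%, 0.521%, 0.883% and 0.696%.

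The genes whose levels ran most like each member over the 30 profiles (10 classes in 3 libraries, log2 of CPM plus 1, 8627 genes compared) are given as a description, since profiles of a library share its depth and classes share lineage. Slc7a11 was closest to Pilrb2 (r = 0.86), Cd177 and Pilra, and Ear2 and Sirpb1c were among the closest to Hmox1. Atpif1 (r = 0.89) and Hspa4l were among the closest to Gclm, and Mt2 was closest to Tmem56 (r = 0.94), Slc38a5 and Btnl10. Mt1 was closest to Htra2 (r = 0.85), Stom and Gatm, and Txnip to Ssh2 (r = 0.90), Atxn7 and Ulk2. Prdx1 was closest to Nme2 and Sod2 to Eif3i (r = 0.94 for each). Among the 10 genes themselves, Prdx1 and Sod2 had r = 0.72, Gclm and Mt1 0.73, and the neighbours Mt1 and Mt2 0.57, whereas Txnip ran against Gclm (r = -0.70) and Mt1 (r = -0.68).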

How the data were processed

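Bone marrow from 1 Sham, 1 MI and 1 MI-E library was profiled with 10x Genomics 3′ v3.1 chemistry, per the labels' protocols. The deposited tables give, for every barcode, whole UMI counts of each gene, not normalized. The submitters' processing notes name Cell Ranger 5.0.1 and the mm10 mouse genome. The tables held 99657072 UMIs in 25721 Sham barcodes, 127330601 in 23810 MI barcodes and 109451500 in 22857 MI-E barcodes. Groups came from the treatment labels. The members and lists were chosen with earlier results of these data known.

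Cells were required to have at least 300 genes and 500 UMIs, with no more than 10% of UMIs from mitochondrial genes, and doublets were removed by scoring against 2 simulated doublets per barcode (3780 in Sham, 15.1%; 2996 in MI, 12.8%; 2889 in MI-E, 12.8%). Cells were clustered together (Python 3.11.15, scanpy 1.11.5, scikit-learn 1.9.0, igraph 0.11.9, pandas 2.3.3, scipy 1.17.1, numpy 2.4.6, matplotlib 3.10.9) on 2000 variable genes without the members, the list genes, ribosomal and mitochondrial genes and the segment genes of antigen receptors, with 40 components, 20 neighbours and Leiden resolution 1 (seed 1), with no correction between libraries. Clusters were named "-like" from at least 3 detected markers by a score over the 8 best, a step chosen after seeing the clusters. UMIs were summed per class and library. No test was possible with 1 library per group, so no p-value is given, and precision follows the UMIs behind a value. The ratio script was checked on simulated counts.

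All members were named in every class, and of each list the text draws on the 2 most abundant genes and up to 3 whose interval lay farthest from equal levels in neutrophil-like, monocyte-like and B lineage-like cells, which gives more genes than are described. Some genes of the cluster and likeness lists are not reported here. Promoter sequences came from RefSeq (GRCm38.p6) by symbol, and gene positions from GENCODE M21. The 17 alternatives covered filters, doublets, clustering, scaling, weighting, depth, minimums and the fold limit.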

Additional observations from a re-analysis of the deposited data

Results flagged for a closer look

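A set of 3 genes had effects of MI over Sham that pointed in opposite directions in different classes, with intervals on either side of equal levels. With 1 library per group the differences between classes were not tested. For Gclm the log2 ratio was 1.22 in monocyte-like cells and -0.50 in B lineage-like cells. For Prdx1 it was 0.62 in myeloid progenitor-like cells and -1.06 in basophil and mast-like cells. For Txnip it was 1.71 in T-like cells and -0.40 in monocyte-like cells.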

How the results depend on the processing

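For MI over Sham, MI-E over MI and MI-E over Sham, 12, 2 and 11 pairs of a gene and a class were past 2-fold. Of these, 8, 2 and 3 stayed past it under all 14 alternatives that gave a new ratio, and 0 changed direction. The remaining alternatives change only the minimum level or the fold limit and are given as counts below. Calls for MI over Sham that lost the limit were Mt1 in B lineage-like cells (log2 ratio 0.91 with the stricter cell filter), Prdx1 in basophil and mast-like cells (-0.45 without doublet removal), and Mt1 and Mt2 in erythroid-like cells (0.73 and 0.88 with median-of-ratios scaling). With a fold limit of 1.5 the pairs past it were 22 for MI over Sham, 13 for MI-E over MI and 21 for MI-E over Sham. For MI-E over MI the count was 4 with members among the variable genes, with median-of-ratios or TMM scaling, without the top cell or with cells thinned to 1000 UMIs, 7 with cells weighted equally, 9 with no minimum level and 1 with a minimum of 50 CPM. For MI-E over Sham it was 19 with no minimum and 7 with 50 CPM. Of the 300 levels 207 reached 10 CPM and 129 reached 50 CPM. Class values under 30 UMIs, or under 10 CPM such as those of Srxn1 in the main classes, limit what can be seen. The causes of these changes were not tested. No paired analysis was possible because each group has 1 library.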
